A study of Mus musculus with 2 samples.

Results

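The ABC efflux transporters examined here were the 6 genes *Abcb1a*, *Abcg2*, *Abcc4*, *Abcc1*, *Abca1* and *Abcg1*, which encode pumps that use ATP to move drugs, conjugates or lipids out of cells. They were chosen by name, and their rows were found through their Ensembl identifiers among the 19813 genes with a symbol and a row at both ages. All 6 had a row at both ages. Retinal endothelial cells came from wild-type C57BL/6 mice at postnatal day (P)6 and P15 with no treatment in the labels, and were sorted by FACS for the endothelial protein CD31 and against the leukocyte protein CD45. Each age gave 1 single-cell library from the 10x Genomics droplet platform. The number of mice behind a library is not given in the sources used here.

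Endothelial cells of the retina and brain form a barrier in which tight junctions close the path between cells, so that passage depends on carriers in the cell membrane. P-glycoprotein, the product of *Abcb1a*, and the breast cancer resistance protein, the product of *Abcg2*, return many lipophilic drugs and toxins to the blood. The multidrug resistance-associated proteins encoded by *Abcc4* and *Abcc1* export organic anions and conjugates, cyclic nucleotides and prostaglandins in the case of *Abcc4* and glutathione conjugates and leukotriene C4 in the case of *Abcc1*. *Abca1* passes cholesterol and phospholipid to lipid-poor apolipoprotein, *Abcg1* passes cholesterol to lipoprotein particles, and both genes are known targets of the oxysterol-sensing liver X receptors (LXR).

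The P6 table held 1984 cell barcodes and 13958124 unique molecular identifiers (UMIs, which count each captured mRNA once), and the P15 table held 2141 barcodes and 11589641 UMIs. Cells with 200 to 3500 detected genes, no more than 5% of their UMIs from mitochondrial genes and no *Neurod1*, *Cd63* or *Hbb-bt* UMIs were kept. This is a reading of the study's stated limits and not its exact filter, since only 1399 of the 1560 P6 cells that the study labelled passed it. After it, 1424 cells with 7648189 UMIs remained at P6 and 1644 cells with 7371443 UMIs at P15. These are called passing cells, and their median depth was 4986 UMIs (P6) and 4215 UMIs (P15). A set of 7 barcodes occurred in both libraries. All 8 endothelial markers were detected at both ages, with *Cldn5*, a tight junction claudin, in 99.8% of passing cells at P6 and 99.9% at P15. Levels are given in CPM (UMIs of a gene scaled to a total of 1000000 UMIs in the same cells). Of the 8 markers, 5 were higher at P15, among them *Cldn5*, which went from 5584 to 9955 CPM. Lower at P15 were *Cdh5*, from 539 to 506, *Kdr*, from 390 to 362, and *Tek*, from 154 to 142. Markers of other cells were higher at P15: the summed level of the 8 pericyte and mural markers went from 11.4 to 308 CPM, that of the 8 retinal neural markers from 12 to 72.3, that of the 4 haemoglobin genes from 22.6 to 172, that of the 6 microglial markers from 2.22 to 5.97 and that of the 6 Mueller glia and astrocyte markers from 369 to 1228. *Glul*, which gave 2802 of the 2823 glial UMIs at P6, and *Rgs5*, which gave 1781 of the 2269 pericyte UMIs at P15, dominated their lists. All 6 glial markers were higher at P15 and not *Glul* alone. *Rlbp1* went from 1.31 to 63.6 CPM and from 0.702% to 17.2% of passing cells. Of the 8 pericyte markers 7 were detected at P6 (*Cspg4* was at 0) and 8 at P15, and of the 8 neural markers 7 at P6 and 5 at P15, with *Neurod1* at 0 by the filter and *Tubb3* and *Elavl4* at 0 at P15. *Ptprc*, the gene of CD45, had 0 UMIs at both ages, which allows up to 0.392 CPM at P6 and 0.407 at P15.

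Each CPM level has an exact Poisson 95% interval. Ratios have an exact conditional binomial interval and shares of cells an exact Clopper-Pearson interval. With 1 library per age all of these cover counting error only, no test between ages was possible, and a gene was counted as past the fold at 1.5-fold with at least 100 UMIs over both groups (at least 50 UMIs for the gene lists, read against all genes at that minimum).

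The first question was how the transcript levels of the pumps differed between the 2 libraries, from the stage of sprouting vessels at P6 to the more mature network at P15. *Abcb1a* and *Abcc4* were higher at P15 by over 1.5-fold, *Abcg2* and *Abcg1* stood at the ratio of the median gene, *Abca1* stood below it, and *Abcc1* had too few UMIs for a precise ratio. Over the 9382 genes tested, 17.5% were at least 1.5-fold higher at P15 and 10.5% at least 1.5-fold lower, and the median ratio was 1.09.

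*Abcb1a* (ENSMUSG00000040584.8, GRCm38 chromosome 5, bases 8660077 to 8748575, plus strand) had 805 UMIs at P6, or 105 CPM (95% interval 98.1 to 113), and 1603 UMIs at P15, or 217 CPM (207 to 228). The P15 library was 2.07 times as high as the P6 library (1.90 to 2.25), and 94.4% of the genes tested had a lower ratio. Relative to the median gene, *Abcb1a* was 1.89 times as high at P15 (1.74 to 2.06). Cells with at least 1 *Abcb1a* UMI made up 38.8% of passing cells at P6 (36.3 to 41.4) and 55.3% at P15 (52.9 to 57.7). When every cell was thinned to 3000 UMIs, the shares were 25.9% of 1245 cells (23.5 to 28.4) and 44.7% of 1163 cells (41.8 to 47.6). The shallower cells left out by thinning numbered 179 at P6 and 481 at P15.

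The close paralog *Abcb1b* lies next to *Abcb1a* in the mouse genome and encodes a second P-glycoprotein. It had 12 UMIs at P6 and 2 UMIs at P15, so nearly all P-glycoprotein transcripts were assigned to *Abcb1a*. Of the 31-base words in the longest *Abcb1a* transcript, 21.4% also occurred in *Abcb1b* transcripts, but none of the 470 words in its last 500 bases did. How the counting divided shared reads and which end of the transcript was read are not given in the sources used here, so the division between the paralogs is uncertain. *Abcb1a* also shares exonic bases with *Gm42686* on the opposite strand, which had 22 UMIs (P6) and 64 UMIs (P15). Whether the counting used strand is not given in the sources used here, so reads of the pair cannot be told apart.

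*Abcg2* (ENSMUSG00000029802.13, chromosome 6, bases 58584523 to 58695676, plus strand) had 4068 UMIs at P6 and 4276 UMIs at P15, or 532 CPM (516 to 548) and 580 CPM (563 to 598). Its ratio of 1.09 (1.04 to 1.14) equalled the median of the genes tested, and relative to that median it was 1.0 (0.958 to 1.04). Most cells carried it, with a UMI in 86.6% of passing cells at P6 (84.7 to 88.3) and in 83.3% at P15 (81.4 to 85.1). Thinned to equal depth, the shares were 75.2% (72.7 to 77.6) and 79.0% (76.6 to 81.3). The order of the ages in this share therefore turned with depth, and no difference between the ages is read from it.

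*Abcc4* (ENSMUSG00000032849.13, chromosome 14, bases 118482692 to 118706219, minus strand) had 148 UMIs at P6 and 354 UMIs at P15. These correspond to 19.4 CPM (16.4 to 22.7) and 48.0 CPM (43.2 to 53.3), a ratio of 2.48 (2.04 to 3.03) and of 2.28 relative to the median gene (1.87 to 2.78). Of the genes tested, 96.6% had a lower ratio. A UMI of *Abcc4* was found in 9.69% of passing cells at P6 (8.2 to 11.3) and in 18.7% at P15 (16.8 to 20.6), and in thinned cells in 5.70% (4.48 to 7.14) and 10.6% (8.87 to 12.5).

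*Abcc1* (ENSMUSG00000023088.16, chromosome 16, bases 14361558 to 14475737, plus strand) had 45 UMIs at P6 and 49 UMIs at P15, or 5.88 CPM (4.29 to 7.87) and 6.65 CPM (4.92 to 8.79). With 94 UMIs in all it was under the minimum for the comparison. The interval of its ratio, 0.738 to 1.73, covered both a lower and a higher level at P15.

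*Abca1* (ENSMUSG00000015243.4, chromosome 4, bases 53030787 to 53159895, minus strand) had 754 UMIs at P6 and 640 UMIs at P15. Its level was 98.6 CPM at P6 (91.7 to 106) and 86.8 CPM at P15 (80.2 to 93.8), a ratio of 0.881 (0.791 to 0.980). Relative to the median gene the ratio was 0.808 (0.726 to 0.899), and 26.7% of the genes tested had a lower ratio. This direction depended on the cells that entered: over every deposited barcode the ratio was 1.09, and among cells with no UMI of a marker of other cell types it was 1.67. The shares of thinned cells with a UMI, 22.5% at P6 (20.2 to 24.9) and 21.4% at P15 (19.1 to 23.9), had overlapping intervals, while the unthinned shares were 35.8% (33.3 to 38.4) and 30.7% (28.5 to 33.0).

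*Abcg1* (ENSMUSG00000024030.6, chromosome 17, bases 31057675 to 31117988, plus strand) had 3823 UMIs at P6 and 4128 UMIs at P15. Its level was 499.9 CPM at P6 (484 to 516) and 560.0 CPM at P15 (543 to 577), a ratio of 1.12 (1.07 to 1.17) and of 1.03 relative to the median gene (0.983 to 1.07). It was found in 80.2% of passing cells at P6 (78.0 to 82.2) and 76.0% at P15 (73.9 to 78.1), and in 68.0% (65.3 to 70.5) and 70.9% (68.2 to 73.5) of thinned cells. As for *Abcg2*, the order of the ages turned with depth, and no difference is read from these shares.

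Of the 5 members that could be compared, 2 were therefore at least 1.5-fold higher at P15 and none was at least 1.5-fold lower. Ribosomal protein and mitochondrial genes took 21.7% of the UMIs of passing cells at P6 and 12.9% at P15. Scaling to the other UMIs alone multiplied every ratio by 0.899, a shift of -0.15 on the log2 scale, and moved the median gene to 0.981. On that scale *Abcb1a* was 1.86 times and *Abcc4* 2.23 times as high at P15, *Abcg2* turned to 0.981, *Abcg1* stood at 1.01 and *Abca1* at 0.792. The share of higher genes among all genes past the fold went from 62.5% to 44.0%. Ratios relative to the median gene are the same on both scales.

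To set a background for the shares, 49 P6 barcodes with at least 10 UMIs of retinal neural markers and at most 0.1% endothelial marker UMIs were taken as cells that should lack the barrier pumps. The cap on endothelial marker UMIs also leaves out barcodes with more stray endothelial transcripts. These barcodes can therefore understate the background, and low values in them follow in part from their selection. Their median depth was 6038 UMIs against 4986 UMIs in P6 passing cells. In 41 such barcodes thinned to 3000 UMIs, *Abcb1a* and *Abcc4* had 0 cells with a UMI (each 0 to 8.60%) and *Abcg2* had 7.32% (1.54 to 19.9), which put the P6 passing cells above them for *Abcb1a* and *Abcg2*. The interval for *Abcc4* covered the 5.70% of passing cells, so its share was not separated from background, but its level in these barcodes, 2.0 CPM (0.0506 to 11.1), lay below the 19.4 CPM of P6 passing cells with intervals apart. *Abcc1* had 2.44% of thinned neural-marker barcodes (0.0617 to 12.9) against 1.77% of P6 passing cells, and its level there, 26.0 CPM (13.8 to 44.4), was above the 5.88 CPM of passing cells. These barcodes carried the gene and gave no background for it. For *Abca1* the share was 9.76% (2.72 to 23.1) with overlapping intervals. Its level in these barcodes, 34.0 CPM (19.8 to 54.4), lay below the 98.6 CPM of P6 passing cells (91.7 to 106) with intervals apart. *Abcg1* was found in 68.3% of these barcodes (51.9 to 81.9), so that they gave no background for this gene either. P15 held 5 neural-marker barcodes, of which 1 reached 3000 UMIs, too few for the same comparison.

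**Figure D1:**
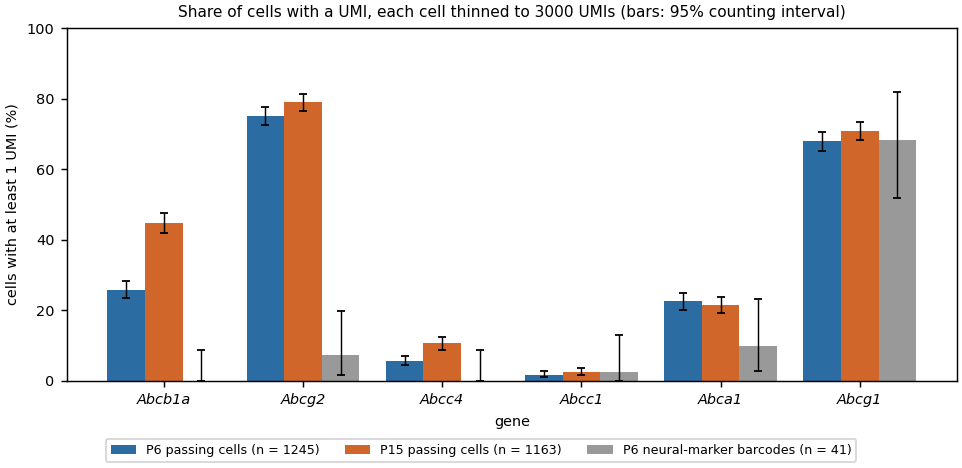
Share of cells with at least 1 UMI of each gene after thinning every cell to 3000 UMIs, in P6 passing cells, P15 passing cells and P6 neural-marker barcodes, with exact 95% counting intervals. *Abcb1a* went from 25.9% at P6 to 44.7% at P15 and was at 0% in the neural-marker barcodes, while *Abcg1* was near 68% in the P6 passing cells and the neural-marker barcodes alike.

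Pericyte markers were higher at P15, so the pumps were also read in pericyte-marker barcodes, those with at least 5 UMIs of the pericyte list. Among passing cells there were 3 of these at P6 and 85 at P15. In the 85 barcodes *Abcb1a* stood at 169 CPM (132 to 213), against 217 in all P15 passing cells, and *Abcc4* at 61.0 CPM (39.8 to 89.3) against 48.0. No cap on endothelial marker UMIs was set for these barcodes, so the values cannot be taken as levels in pericytes alone. When cells with a UMI of any pericyte, neural, glial, microglial or haemoglobin marker were left out, with *Glul* not used because most endothelial cells carried it, 1143 cells at P6 and 370 at P15 remained. The P15 to P6 ratio was then 2.36 for *Abcb1a*, 2.73 for *Abcc4*, 1.16 for *Abcg2*, 1.2 for *Abcg1* and 1.12 for *Abca1*. Each of these ratios was above that of the same gene over all passing cells. No ratio of the median gene is given for these cells, so a shift of all genes cannot be told apart. The part of the left-out cells in the ratios was not tested.

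The pumps were next followed along the clusters that the study named from venous, capillary, arterial and cell cycle genes. Labels were at hand for 1560 P6 cells and for the first 438 P15 cells in barcode order. Since the clusters were made from the expression of the same cells, the levels by cluster are a description with no test. The 9 clusters held 40 (Arterial) to 414 cells (Cap-Venous) at P6, and 2 (Venous) to 134 cells (Cap-Venous) at P15. Median depth differed between them, from 3204 UMIs in Capillary to 7955 UMIs in Proliferative cells at P6. The summed level of the endothelial markers differed as well. At P6 it was highest in Capillary cells, at 12057 CPM, with 6411 in Proliferative cells and the lowest level, 4604, in Primitive cells. At P15 it was at 15822 in Capillary and 10491 in Primitive cells. Levels of the pumps by cluster were not scaled to these markers, so an order shared with endothelial genes cannot be told apart.

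*Abcb1a* at P6 fell into a high, a middle and a low range. It was at 196 CPM in Cap-Arterial (167 to 229), 191 in Capillary (156 to 233) and 177 in Arterial cells (123 to 246), which did not differ beyond counting error. Cap-Venous cells followed at 97.7, Stalk at 86.2, Venous at 80.8, Tip at 78.6 and Proliferative at 72.3, again without a gap beyond counting error between neighbours. Primitive cells were lowest at 34.0 (23.2 to 48.0). The step from Arterial to Cap-Venous was 1.81-fold (1.24 to 2.59) and that from Proliferative to Primitive 2.13-fold (1.43 to 3.25).

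At P15 *Abcb1a* had the same 3 clusters in front, at 378 CPM (270 to 515) for Capillary, 301 (242 to 369) for Cap-Arterial and 285 (156 to 479) for Arterial cells. Cap-Venous cells were at 251, Stalk at 182, Proliferative at 165, Primitive at 96.8 and Tip at 95, and the 2 Venous cells held 1 UMI. Only Cap-Venous to Stalk was a step beyond counting error between neighbours, at 1.38-fold (1.05 to 1.84). Within each of the 9 clusters the P15 level was above the P6 level, and in 6 of them the interval of the ratio lay above 1. These ratios ran from 1.53 in Cap-Arterial (1.17 to 1.99) to 2.85 in Primitive cells (1.34 to 5.69), with 2.57 in Cap-Venous cells (2.12 to 3.11). In Tip cells the ratio was 1.21 (0.754 to 1.88). Over labelled cells the ratio was 2.23, and weighting them to the P6 makeup of clusters gave 2.07.

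*Abcg2* varied less along the clusters, with a 2.17-fold range at P6. Capillary cells were highest at 731 CPM (659 to 808), and were 1.22 times the level of Cap-Arterial cells at 600 (1.06 to 1.39). From there the levels passed through Cap-Venous at 552, Venous at 510, Stalk at 494, Tip at 489, Proliferative at 466 and Arterial at 415 to Primitive at 337 (301 to 376), and no neighbours in that order differed beyond counting error. At P15 the 6 clusters of at least 30 cells lay between 408 in Tip cells (337 to 490) and 631 in Cap-Arterial cells (545 to 727), and no neighbours differed. The P15 to P6 ratio had an interval above 1 in 2 clusters, 1.14 in Cap-Venous (1.02 to 1.26) and 1.17 in Stalk cells (1.0 to 1.36), and an interval below 1 in none.

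*Abcc4* was sparse, with 3 to 64 UMIs per cluster at P6. Its level there ran from 10.7 CPM in Stalk (5.98 to 17.6) to 35.1 in Venous cells (16.9 to 64.6), and no neighbours in the order differed beyond counting error. Against all other labelled P6 cells, Cap-Venous cells were 1.46 times as high (1.06 to 2.0) and Stalk cells 0.537 times (0.294 to 0.911). The P15 level was above the P6 level in all 9 clusters, but several held few UMIs at P15. There was 1 UMI in Venous, 2 in Proliferative and 4 each in Primitive and Arterial cells. The interval lay above 1 in Cap-Venous at 2.29 (1.51 to 3.43), Capillary at 3.09 (1.25 to 7.24) and Stalk at 3.32 (1.48 to 7.37). In the other clusters the interval covered 1.

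*Abcc1* had 0 to 11 UMIs per cluster at P6 and 0 to 3 at P15. Capillary cells, with 11 UMIs or 21 CPM (10.5 to 37.6), were 3.92 times the level of all other labelled P6 cells (1.84 to 7.63). Venous cells had 0 UMIs at P6, which allows up to 10.5 CPM. The 3 UMIs in Capillary cells at P15 gave a ratio to other cells of 6.41 (1.12 to 25.7). Arterial cells, with 2 UMIs, were higher at P15, at 40.7 CPM against 28.4 in Capillary cells. The highest cluster did not differ from the next beyond counting error at either age.

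*Abca1* had its highest level in Capillary cells at both ages. At P6 it stood at 222 CPM there (183 to 266), 1.78 times the level of Cap-Arterial cells at 124 (1.36 to 2.35). Venous cells at 109, Cap-Venous at 102, Stalk at 85.5 and Proliferative at 78.8 followed without a gap beyond counting error. Tip cells at 50.9, Arterial at 40.5 (17.5 to 79.8) and Primitive at 38.2 formed the low end, set off from Proliferative cells by 1.55-fold (1.13 to 2.15). At P15 Capillary cells were at 189 CPM (116 to 292) and again 1.97 times the next cluster, Cap-Arterial at 95.8 (1.06 to 3.61). The share of thinned P6 cells with a UMI was 37.4% in Capillary (27.4 to 48.1) and 7.10% in Primitive cells (3.6 to 12.3). Between the ages, the interval of the ratio lay above 1 in Primitive cells, at 2.32 (1.07 to 4.66), and covered 1 in the other 8 clusters.

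*Abcg1* had another order. At P6 Tip cells at 710 CPM (661 to 761) and Stalk cells at 704 (660 to 749) were highest and did not differ. Capillary cells at 593, Venous at 503, Cap-Venous at 476, Proliferative at 417, Cap-Arterial at 317 and Primitive at 281 came between. Arterial cells were lowest at 91.1 (54.0 to 144), with Primitive cells 3.09 times their level (1.92 to 5.29). Against all other labelled P6 cells Arterial cells stood at 0.182 (0.108 to 0.288), and 28.1% of thinned Arterial cells had a UMI (13.7 to 46.7) against 84.6% of thinned Tip cells (78.0 to 89.9).

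At P15 *Abcg1* was again lowest in Arterial cells, at 102 CPM in 11 cells (33.1 to 238), and Cap-Arterial cells at 330 were 3.24 times as high (1.34 to 10.2). Tip cells were at 845 (741 to 958) and Capillary cells at 794 (634 to 984). The 2 Venous cells held 8 UMIs, too few to place them. The ratio of P15 to P6 had an interval above 1 in Cap-Venous cells at 1.30 (1.16 to 1.44), Capillary at 1.34 (1.04 to 1.71) and Tip at 1.19 (1.03 to 1.38). For Venous cells it was 2.37 (1.01 to 4.80), but with 2 cells at P15 nothing is read from it.

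**Figure D2:**
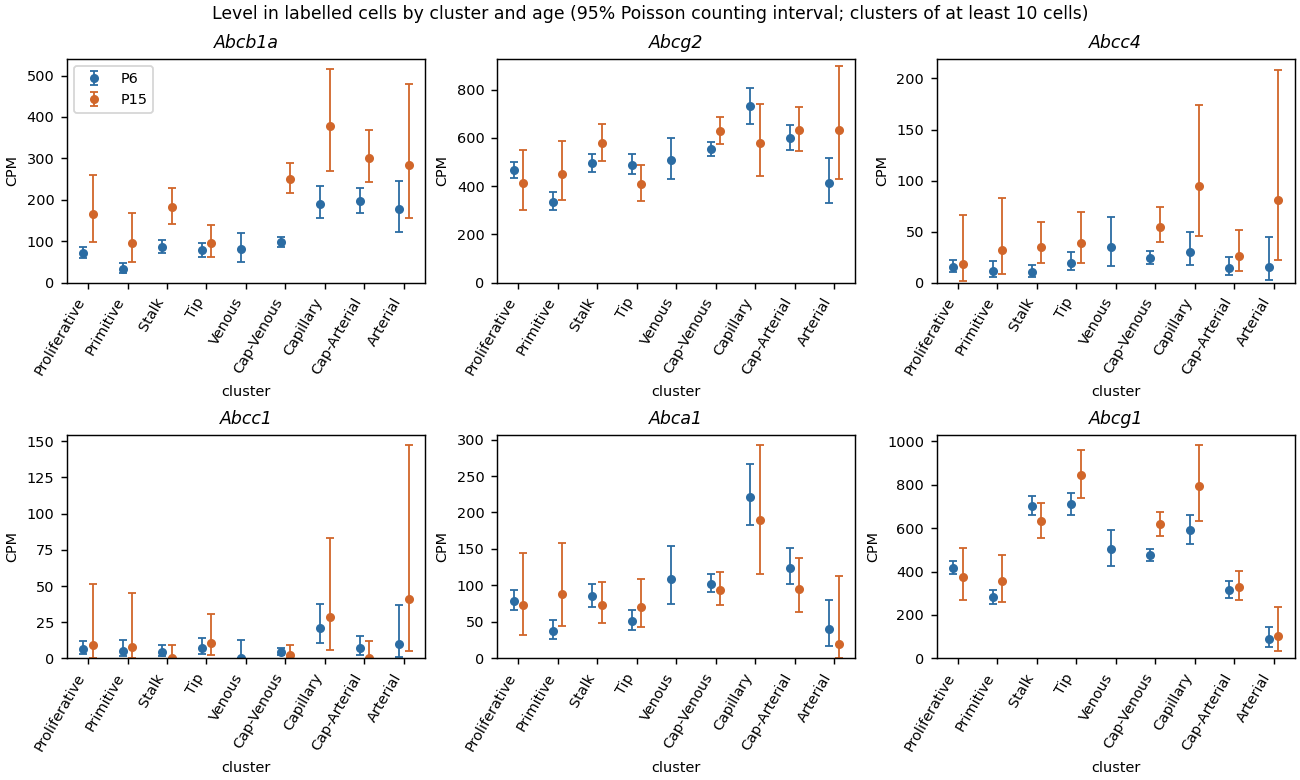
Level of each gene in CPM by cluster at P6 and P15, with exact Poisson 95% intervals, for clusters of at least 10 cells (P15 Venous, with 2 cells, is not drawn). *Abcb1a* was highest in Capillary, Cap-Arterial and Arterial cells, *Abca1* in Capillary cells at 222 (P6) and 189 (P15), and *Abcg1* was lowest in Arterial cells at 91.1 (P6) and 102 (P15).

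**Figure D3:**
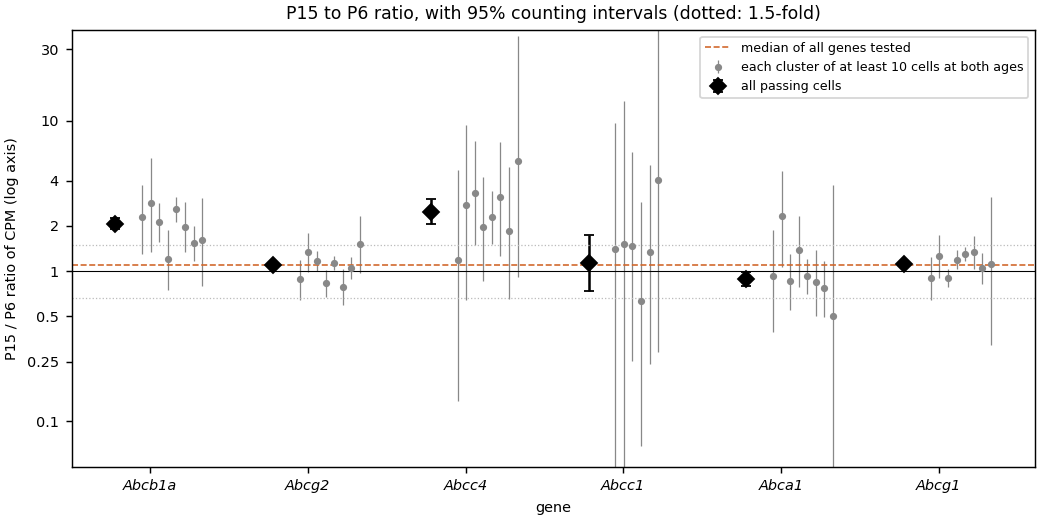
P15 to P6 ratio of each gene on a log axis for all passing cells (diamonds) and for each cluster of at least 10 cells at both ages (circles, in the order Proliferative to Arterial, clusters with 0 UMIs at P15 not drawn), with 95% counting intervals, some of which run past the axis. Every drawn circle of *Abcb1a* and *Abcc4* lies above 1, with the whole interval above 1 in 6 clusters for *Abcb1a* and 3 for *Abcc4*. The circles of *Abcg2*, *Abca1* and *Abcg1* lie on both sides.

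The study compared the arterial with the venous side, so Cap-Arterial and Arterial cells together were set against Cap-Venous and Venous cells of the same library. At P6, 10.9% of 5393 genes tested were at least 1.5-fold higher on the arterial side and 6.77% at least 1.5-fold lower. At P15 these shares were 8.62% and 8.1% of 2112 genes. Scaled without ribosomal and mitochondrial UMIs, the balance turned, from 589 higher and 365 lower genes to 457 and 489 at P6 and from 182 and 171 to 154 and 216 at P15. Of the 4 members with enough UMIs, *Abcb1a* was past the fold upward at P6 and *Abcg1* downward at both ages.

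*Abcb1a* was at 193 CPM on the arterial and 96.1 on the venous side at P6, a ratio of 2.0 (1.66 to 2.41), and 96.1% of the genes tested had a lower ratio. At P15 it was at 298 and 251 CPM, a ratio of 1.19 (0.930 to 1.52). The intervals of both ratios did not overlap, and with 1 library per age the difference between them was not tested.

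*Abcg1* was at 274 CPM on the arterial and 479 on the venous side at P6, a ratio of 0.572 (0.501 to 0.650), and 3.73% of the genes tested had a lower ratio. At P15 it was at 298 and 623 CPM, a ratio of 0.479 (0.384 to 0.593), with 1.28% of genes lower. *Abcg2* was level between the sides, with 1.03 (0.936 to 1.13) at P6 and 1.0 (0.853 to 1.18) at P15. *Abca1* had ratios of 1.05 (0.841 to 1.31) and 0.912 (0.575 to 1.42). *Abcc4*, with 89 and 55 UMIs in these cells, was under the minimum, at 0.578 (0.308 to 1.02) and 0.611 (0.293 to 1.18), and *Abcc1* had 19 and 4 UMIs.

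The glial list, in which *Glul* dominated, stood at 1592 CPM in Cap-Arterial and 1564 in Arterial cells at P6 against 249 in Cap-Venous and 257 in Venous cells. The neural list was between 7.51 and 15.2 CPM in these 4 clusters and the pericyte list between 0 and 15.2, and their part in the ratios was not tested. In P6 neural-marker barcodes *Abcg1* was at 435 CPM (379 to 497) and *Abcb1a* at 2.0 (0.0506 to 11.1).

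**Figure D4:**
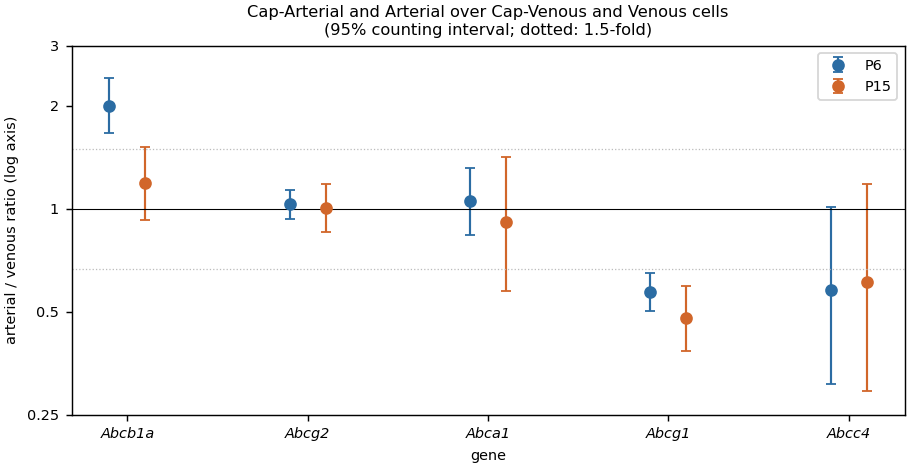
Ratio of Cap-Arterial and Arterial cells to Cap-Venous and Venous cells on a log axis at P6 and P15, with 95% counting intervals (*Abcc1*, with 19 and 4 UMIs, is not drawn). *Abcb1a* was at 2.0 at P6 and 1.19 at P15, and *Abcg1* was below 1 at both ages, at 0.572 and 0.479.

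The pumps were also read together within single cells, as a description. After thinning, 40.7% of P6 cells and 39.3% of P15 cells held UMIs of exactly 2 members, no cell held all 6, and the share of cells with none went from 5.70% at P6 to 2.24% at P15. Among P6 cells with *Abcb1a*, 77.6% also held *Abcg2* (72.7 to 82.1), against 74.3% of cells without *Abcb1a* (71.4 to 77.1). For *Abca1* and *Abcg1*, the pair of sterol exporters, 72.9% (67.2 to 78.0) of P6 cells with *Abca1* held *Abcg1* and 66.5% (63.5 to 69.5) of the others. At P15 these shares were 69.5% and 71.3%. The widest gap among the 4 pairs read was at P6, where *Abca1* was found in 28.3% of cells with *Abcb1a* (23.4 to 33.5) and in 20.5% of cells without it (17.9 to 23.2). For this pair the P15 shares were 23.5% (19.9 to 27.3) and 19.8% (16.7 to 23.0), with overlapping intervals.

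Over the 9 P6 clusters, the patterns of *Abcg2* and *Abca1* on the scale of log2(CPM + 10) had a Pearson r of 0.93, *Abcb1a* and *Abcg2* one of 0.71, and *Abcb1a* and *Abcg1* one of -0.24. These points come from 1 library and differ in depth. Among 5871 genes with at least 200 UMIs in labelled P6 cells, the 3 genes most like *Abcb1a* were *Plec* (r = 0.99), *Sipa1l2* (0.98) and *Adgre5* (0.98). For *Abcg2* they were *Wls* (0.97), *Qk* (0.96) and *Ski* (0.96). For *Abca1* they were the amino acid carrier *Slc7a8* (0.97), the thyroid hormone carrier *Slco1c1* (0.97) and *Zfp366* (0.96), each highest in Capillary cells. For *Abcg1* they were the glutamine carrier *Slc38a3* (0.97), *Cpe* (0.96) and *Cacna1e* (0.96), each lowest in Arterial cells. For the sparse members they were *Cst3* (0.94), *Ahcyl1* (0.94) and *Rxrb* (0.90) with *Abcc4*, and *Dus3l* (0.96), *Ddx42* (0.94) and *Tmx3* (0.94) with *Abcc1*. *Abcc4* had 179 and *Abcc1* 60 UMIs in labelled P6 cells, under the minimum set for the other genes. Each r was the highest of many over few points, so nothing is read from the values of these sparse members.

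The other ABC exporters of the plasma membrane or of lipids were a list of 14 genes, of which 11 had a row at both ages and 5 had at least 50 UMIs. Of these 5, 2 were at least 1.5-fold higher at P15 and none lower, with a median ratio of 1.38. Over all 10972 genes with at least 50 UMIs, 18.8% were at least 1.5-fold higher and 11.8% lower, with a median ratio of 1.09. Scaled without ribosomal and mitochondrial UMIs these shares were 13.0% and 16.2%, with a median of 0.980. The lists are small, and nothing particular to them is read from their counts. Ratios of listed genes, here and below, are over all passing cells. They are not given without cells that hold markers of other cell types, and the part of such cells in them was not tested. *Abcc6*, whose loss causes ectopic mineralization, went from 2.88 to 11.9 CPM, a ratio of 4.15 (2.58 to 6.96). *Abca7*, a lipid exporter related to *Abca1*, was 1.74 times as high (1.04 to 2.98). *Abcc5*, an exporter of cyclic nucleotides and glutamate conjugates, went from 31.9 to 44.1 CPM, a ratio of 1.38 (1.17 to 1.64), and was 1.56 times as high on the arterial side at P6 (1.09 to 2.22). *Abca3* and *Abcc10* had ratios of 1.34 (0.939 to 1.91) and 1.22 (0.672 to 2.22). *Abcc2*, *Abcc3* and *Abcb4*, exporters best known from the liver, had 0 to 5 UMIs per library.

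Of the 9 ABC carriers of organelles read here, 5 had at least 50 UMIs. Of these, 1 was at least 1.5-fold higher at P15 and 1 lower (18.8% and 11.8% over all genes), with a median ratio of 0.980. *Tap1* and *Tap2*, which together form the peptide pump of antigen presentation, differed in direction, at 0.565 (0.466 to 0.682) and 1.63 (1.43 to 1.88). *Abcd3*, *Abcd4* and *Abcb8* had ratios of 0.994, 0.980 and 0.747. Scaled without ribosomal and mitochondrial UMIs, 0 of the 5 genes were past the fold upward and 1 downward (13.0% and 16.2% over all genes).

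Genes of the LXR and sterol pathways, with which *Abca1* and *Abcg1* are known to be controlled, numbered 14 as read here, of which 12 had at least 50 UMIs. Of these, 5 were at least 1.5-fold higher and 2 at least 1.5-fold lower at P15 (18.8% and 11.8% over all genes), and 3 and 2 when scaled without ribosomal and mitochondrial UMIs (13.0% and 16.2%). Their median ratio was 1.4. The higher genes were *Mylip*, an LXR target that encodes a ubiquitin ligase, at 3.99 (2.68 to 6.08), the apolipoprotein *Apoe* at 1.98 (1.89 to 2.09), the phospholipid enzyme *Lpcat3* at 1.80 (1.62 to 2.0), the lipoprotein receptor *Scarb1* at 1.55 (1.44 to 1.68) and the receptor partner *Rxra* at 1.51 (1.04 to 2.19). *Nr1h2*, which encodes LXR beta, went from 48.4 to 66.6 CPM, a ratio of 1.38 (1.2 to 1.58). *Nr1h3*, which encodes LXR alpha, was under the minimum of 50 UMIs, is not in these counts and was added after its values were seen. It had 4 UMIs at P6 and 41 UMIs at P15, a ratio of 10.6 (3.85 to 40.9).

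The lower genes were 2 regulators of sterol synthesis. *Srebf2*, the main activator of cholesterol synthesis genes, was at 0.358 (0.252 to 0.501) and *Insig1*, which holds that activator back, at 0.443 (0.355 to 0.551). *Srebf1*, *Npc1*, *Npc2* and *Rxrb* had ratios of 1.02, 1.31, 0.953 and 1.43. The sterol exporters stood at 0.881 for *Abca1* and 1.12 for *Abcg1*, beside higher genes and 2 lower regulators of sterol synthesis on the list.

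The promoter of *Abca1* is shown because the gene is a known LXR target and because its start in RefSeq is also the start of its gene model. RefSeq (GRCm38.p6) promoter windows were at hand for 4 of the 6 members, with none for *Abcc1* and *Abcg1*. The *Abcb1a* window lies upstream of the gene model above and is not shown. The 200 bases before the *Abca1* start, at chr4:53159896-53160095 on the minus strand, read 5′ to 3′ as follows, with capitals for an E-box, a repeat like an LXR element and a TATA box, in this order.
Abca1: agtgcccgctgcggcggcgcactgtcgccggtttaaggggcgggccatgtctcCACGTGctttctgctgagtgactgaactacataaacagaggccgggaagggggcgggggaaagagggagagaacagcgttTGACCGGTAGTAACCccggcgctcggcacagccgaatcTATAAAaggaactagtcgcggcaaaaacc

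LXR binds to direct repeats of 4-base spacing. The letters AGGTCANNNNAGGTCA were not in this window on either strand, and 0.0152% of 32851 promoters held them in the 250 bases before the start. The looser letters GGTNANNNNNGGTCA, chosen after the sequence was seen, lay on the other strand from 67 to 53 bases before the start, and 0.177% of promoters held them. The E-box CACGTG, a palindrome, lay 147 to 142 bases before the start and was in 6.02% of promoters. TATAAA lay 29 to 24 bases before the start and was in 12.4% of promoters on either strand. The GC box GGGCGG was in 32.7% of promoters and lay at 163 to 158 and at 97 to 92 bases before the *Abca1* start. Among the other windows, GGGCGG was in 2 of the 3 *Abcg2* windows and in 1 of the 2 *Abcc4* windows and not in that of *Abcb1a*, and CACGTG was also in 1 of the 2 *Abcc4* windows. These matches are descriptions of the letters, and binding was not measured.

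The xenobiotic sensors and their targets, among them factors known to raise *Abcb1a* and *Abcg2* in barrier cells, were a list of 12 genes. Of these, 6 had at least 50 UMIs, 3 were at least 1.5-fold higher at P15 and 1 lower (18.8% and 11.8% over all genes), and 2 and 1 when scaled without ribosomal and mitochondrial UMIs (13.0% and 16.2%). Their median ratio was 1.41. *Nr3c1*, the glucocorticoid receptor, went from 35.3 to 75.3 CPM, a ratio of 2.13 (1.84 to 2.48), and was 2.14 times as high on the arterial side at P6 (1.57 to 2.92) and 2.0 times at P15 (1.36 to 2.95). *Nfe2l2*, the master factor of the antioxidant response, was at 1.71 (1.57 to 1.87), and *Por*, the electron donor of cytochrome P450 enzymes, at 1.60 (1.38 to 1.85). *Ahr*, the aryl hydrocarbon receptor, was lower, with 49 UMIs at P6 and 7 at P15, a ratio of 0.148 (0.0566 to 0.329). *Arnt*, its partner, and the haem-degrading enzyme *Hmox1* had ratios of 1.23 and 0.818. *Nr1i3*, the constitutive androstane receptor, had 0 and 2 UMIs, and *Nr1i2*, the pregnane X receptor, had no row at either age.

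The glutathione and prostanoid genes, which make or move substrates of *Abcc1* and *Abcc4*, numbered 14, of which 12 had at least 50 UMIs. At P15, 5 were at least 1.5-fold higher and 3 lower (18.8% and 11.8% over all genes), and 1 and 3 when scaled without ribosomal and mitochondrial UMIs (13.0% and 16.2%). Their median ratio was 1.23. *Gsta4*, a glutathione transferase for products of lipid peroxidation, went from 39.0 to 423 CPM, a ratio of 10.9 (9.65 to 12.3). *Mgst1*, *Gclm*, *Gstm1* and *Mgst3* had ratios of 1.67, 1.66, 1.58 and 1.52. The glutathione enzymes *Gss* and *Gsr* were lower, at 0.565 (0.424 to 0.749) and 0.622 (0.548 to 0.704), and the prostaglandin carrier *Slco2a1* was at 0.343 (0.227 to 0.506). *Gclc*, *Gstp1*, *Ptgs1* and *Ptges* had intervals that covered 1.

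The 4 uptake carriers of the barrier were all past the fold upward at P15 on both scales (18.8% and 13.0% over all genes). Their median ratio was 3.14. *Slco1a4*, a carrier of organic anions that shares drugs with the efflux pumps, went from 36.2 to 1027 CPM, a ratio of 28.4 (25.2 to 32.1). *Slco1c1*, the thyroid hormone carrier, was at 3.48 (3.22 to 3.76), the organic anion carrier *Slc22a8* at 2.80 (2.57 to 3.05) and the glucose carrier *Slc2a1* at 1.84 (1.79 to 1.89). *Abcb1a* at 2.07 and *Abcc4* at 2.48 lay within the range of these ratios, and *Abcg2* at 1.09 lay below it. On the arterial side at P6 *Slco1a4* was 6.41 times as high (4.90 to 8.45) and at P15 1.08 times (0.965 to 1.21), while *Abcb1a* was at 2.0 and 1.19.

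**Figure D5:**
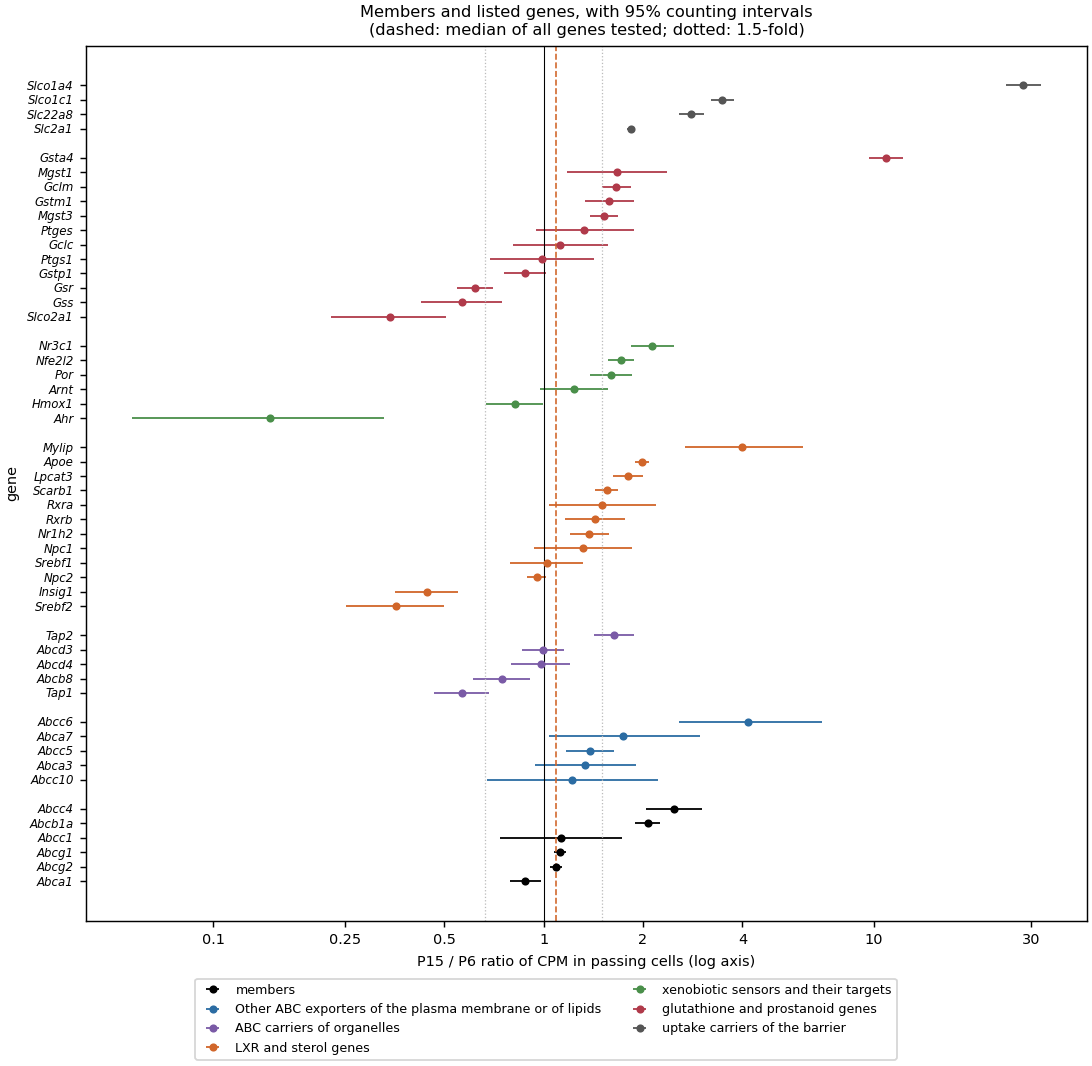
P15 to P6 ratio of the 6 members and of listed genes with at least 50 UMIs over both libraries, on a log axis with 95% counting intervals, grouped by list. *Slco1a4* at 28.4 and *Gsta4* at 10.9 were highest and *Ahr* at 0.148 lowest, while *Abcb1a* at 2.07 and *Abcc4* at 2.48 lay above the dotted 1.5-fold line.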

How the data were processed

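Single-cell RNA sequencing of CD31+CD45- retinal endothelial cells was performed by the study on 1 library per age. The authors deposited counts of UMIs per Ensembl gene and barcode with no normalization, and per the labels the build was mm10 and Seurat 3.0 was used; the aligner and the end of the transcript read are not given in the sources used here. Genes were named by Ensembl identifier (22695 of 22734 at P6 and 21745 of 21785 at P15; rows with no name held 0.0145% and 0.0146% of UMIs). Cluster labels came from the authors' source data for the UMAP of all cells, of which 438 P15 cells were at hand. Of the 1560 labelled P6 cells, 1399 passed the filter as read here. No doublet caller was run; barcodes with both *Xist* and Y-linked UMIs made up 0.632% and 0.730% of passing cells.

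UMIs were summed by library and by cluster. Ratios, intervals (95%), thinning and Pearson r were computed with Python 3.11.15, numpy 2.4.6, scipy 1.17.1 and pandas 2.3.3, and the ratio step was tested on simulated counts. A count of 0 was bounded with 3 counts. With 1 library per age no p-value was computed. Named genes were all 6 members, listed genes with at least 50 UMIs over both libraries, and for each member the 3 genes with the highest r over the P6 clusters. The listed genes *Abcb1b*, *Abcb4*, *Abcc2*, *Abcc3*, *Nr1i2* and *Nr1i3*, under that minimum, were also named to give their low counts. *Nr1h3*, also under that minimum, was added after its values were seen. Members and lists were chosen with earlier results of these data known. Coordinates are from GENCODE M21. Some listed genes are not reported here and were left out of the counts over their lists.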

Additional observations from a re-analysis of the deposited data

How the results depend on the processing

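The ratio of P15 to P6 was recomputed for every member in 9 ways. *Abcb1a* stayed between 1.86 and 2.50 and *Abcc4* between 1.95 and 3.79, both past 1.5-fold throughout. Over every deposited barcode *Abcb1a* was at 2.50, *Abcg2* at 1.2 and *Abca1* reversed to 1.09. Among cells with no UMI of a marker of other cell types (471 at P6 and 89 at P15) *Abcb1a* was at 2.35, *Abcc4* at 3.79, *Abcg1* at 1.34, *Abcc1* at 0, and *Abca1* reversed to 1.67. With *Glul* not used, an alternative chosen after seeing the data, *Abcb1a* was at 2.36, *Abcg2* at 1.16, *Abcg1* at 1.2, and *Abca1* reversed to 1.12. Scaling without ribosomal and mitochondrial UMIs gave 1.86 for *Abcb1a* and 1.01 for *Abcg1*, and *Abcg2* reversed to 0.981. Thinning to 3000 UMIs gave 1.95 for *Abcc4*, the mean over cells 1.03 for *Abcg2*, and labelled cells only 1.18 for *Abcg1*. The cause of these changes was not tested.

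Between arterial and venous cells *Abcc1* moved to 0.322 with thinning at P6 and to 0 with Cap-Arterial against Cap-Venous alone at P15, and *Abcg1* to 0.665 with the latter at P6. The other 57 of 60 values stayed within their intervals. Thinning lowered 11 of 12 shares of cells beyond their intervals: at P6 to 25.9% (*Abcb1a*), 75.2% (*Abcg2*), 5.70% (*Abcc4*), 1.77% (*Abcc1*), 22.5% (*Abca1*) and 68.0% (*Abcg1*), and at P15 to 44.7%, 79.0% and 10.6% for the first 3, 21.4% for *Abca1* and 70.9% for *Abcg1*.

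Counts of all genes past the fold moved with the minimum and the fold by construction. At 2-fold they were 585 higher and 451 lower between the ages, 213 and 109 between arterial and venous cells at P6, and 50 and 34 at P15. With at least 50 UMIs the arterial to venous counts were 955 and 601 at P6 and 402 and 354 at P15, and with at least 200 UMIs 334 and 191, and 80 and 77. No paired analysis was possible because each age has 1 library. Depth limited *Abcc1* and, by cluster, *Abcc4*.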
